A study of Arabidopsis thaliana with 36 samples.

Results

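The accession difference after a second cold treatment was measured by RNA-seq of rosettes of Arabidopsis thaliana. Of the 36 libraries of the series, 6 belonged to it, which were the 3 libraries of triggered N14 plants and the 3 libraries of triggered Col-0 plants, 1 per accession in each of 3 independent experiments. They were chosen by their labelled accession and condition, not by any measured value. N14 is a natural accession labelled as cold tolerant, and Col-0 is the reference accession, labelled as intermediate in freezing tolerance.

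Triggered N14 and triggered Col-0 plants had grown for 28 days, the last week under 16 h of light, had then been kept for 3 days at 4 °C (priming), returned for 7 days to 20 °C by day (the lag) and given a further 3 days at 4 °C (triggering). The comparison groups in both accessions were plants at the end of the lag, plants given their first 3 days of cold after 35 days of growth, 28-day controls, 28-day plants after priming, and 35-day controls. Cold was given under 90 µE of light, against at least 200 µE in the warm, so temperature and light changed together. Triggered plants were 3 days older than those sampled after the lag, and also older than those given a first cold at 35 days. Both accessions are wild types with no transgene, and every library was made from a pool of 5 replicate samples, so that spread between single plants was not measured. The labels give 15 rosettes for 28-day controls and 28-day plants after priming, and 4 for all other groups, triggered plants included. Whether that number is per replicate or per pool was not clear.

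Flowering in Arabidopsis is held back by FLC, a MADS-box repressor that FRIGIDA raises and that long cold silences, and it is released through the mobile protein FT and the integrator SOC1, which switch on meristem identity genes. Cold acclimation runs through the CBF transcription factors, which switch on the cold-regulated COR genes. Natural accessions are also known to differ in glucosinolates, the sulphur-rich defence compounds of crucifers, in anthocyanin pigments and in immune receptors.

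Total counts per library were 28239615, 26934607 and 25464720 in N14 and 28331591, 30216741 and 23885360 in Col-0. Among the 6 libraries the first principal component of log2 CPM (read counts scaled to library size) held 70.0% of the variance and separated the accessions, with N14 at -68.8 to -61.9 and Col-0 at 61.9 to 69.3. The second component held 14.1% and ordered the 3 experiments alike in both accessions, experiment 2 lying lowest at -39.5 in N14 and -36.2 in Col-0 and experiment 3 highest at 29.5 in N14 and 36.8 in Col-0. None of 6 leaf markers passed the unpaired test, SBPASE was called higher in N14 within experiments (0.33, adjusted p = 0.021), and their summed level was 50279, 45145 and 60683 CPM in N14 and 51550.2, 50295 and 66570.1 CPM in Col-0. Of 5 root markers, PYK10 alone had enough counts to be tested (-1.33), with an adjusted p of 0.23 unpaired and 0.010 within experiments, and RHD6 had 0 counts in all 6 libraries.

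Of 20263 genes tested, 2827 (14.0%) differed between triggered N14 and triggered Col-0 at an adjusted p under 0.05 in edgeR's quasi-likelihood test. N14 was higher for 1170 genes (5.77%) and lower for 1657 (8.18%), and differences of at least 2-fold made up 588 of the higher (2.90% of all tested) and 1120 of the lower (5.53%). The median log2 difference over all genes tested was -0.002. All 3 N14 libraries lay above all 3 Col-0 libraries for 3883 genes (19.2%) and below them for 3918 (19.3%). When the accessions were compared within experiments (the paired test below), which removes differences between experiments that both accessions share, 4888 genes were called (24.1%), 2116 higher (10.4%) and 2772 lower (13.7%). Counts of list members called unpaired are to be read against 5.77% and 8.18%, and counts within experiments against 10.4% and 13.7%. The TAIR10 build used for counting is the genome of Col-0, so that for a gene lower in N14, less RNA and N14 reads lost at sequence differences cannot be told apart.

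**Figure D1:**
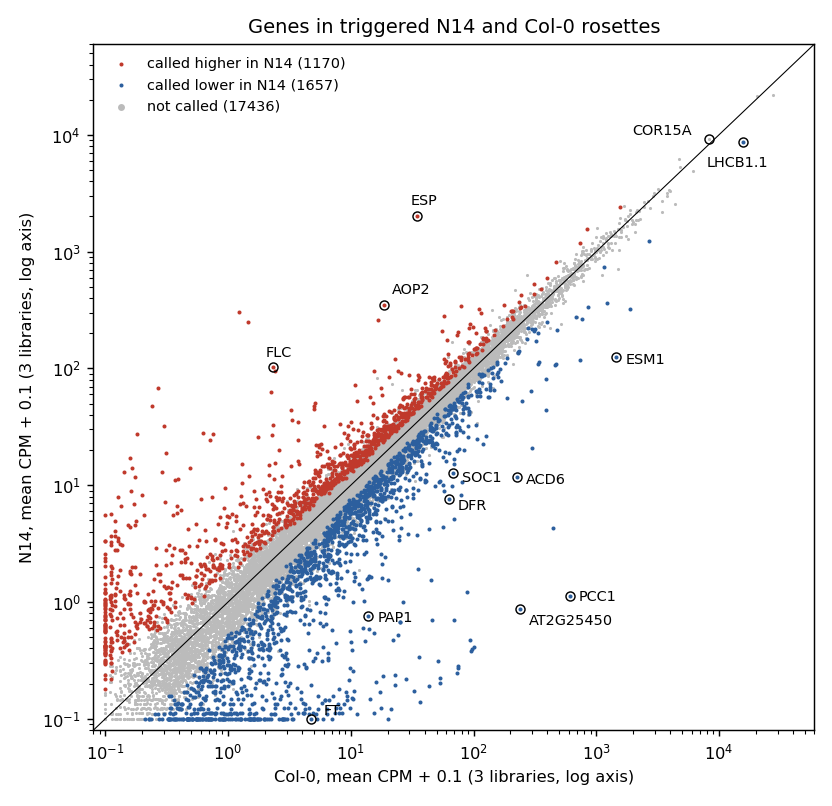
Mean level of every tested gene in triggered N14 (vertical axis) against triggered Col-0 (horizontal axis), as CPM with 0.1 added, both axes logarithmic, each mean over 3 libraries. Red points were called higher in N14, blue points lower and grey points were not called. FLC, ESP and AOP2 lie far above the line of equality, PCC1, AT2G25450 and FT far below it, and COR15A lies on it.

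Flowering genes differed at many steps. The repressor FLC was far higher in N14, and genes that act after it, among them FT, SOC1, AP1 and most floral organ markers, were lower in N14. FLC [AT5G10140] had 109.6, 87.3 and 109 CPM in N14, against 2.1, 2.26 and 2.35 CPM in Col-0. The libraries of each accession lay close together and far from those of the other (log2 difference 5.51 ± 0.29, adjusted p = 8.8e-15), where the difference is N14 minus Col-0 and ± gives its standard error. Of 12 tested flowering repressors of the FLC and MADS type, 2 were higher in N14 and 2 lower, with a median difference of -0.15 against -0.002 over all genes tested. Within experiments MAF2 was called higher as well (0.35, adjusted p = 0.014). MAF3, a close relative of FLC, was also higher, with 33.1, 25.7 and 32 CPM in N14, against 17.5, 15.3 and 17.7 CPM in Col-0 (log2 difference 0.85 ± 0.21, adjusted p = 0.0044). MAF4 and MAF5, its neighbours in the same gene cluster, were lower. MAF5 had 0.784, 0.547 and 0.916 CPM in N14, against 5.2, 3.42 and 5.11 CPM in Col-0 (log2 difference -2.61 ± 0.30, adjusted p = 1.5e-07). MAF4 had 5 counts in all over the N14 libraries and 157 over the Col-0 libraries, a ratio of 31 in favour of Col-0 with a 95% counting interval of 13 to 96.9. The MAF genes are near copies of each other, so their split of reads is uncertain. SVP, a repressor that works with FLC, stood at 95.1 ± 12.4 CPM in N14 and 85.7 ± 7.76 CPM in Col-0 (SD, n = 3) and did not pass the test (log2 difference 0.15 ± 0.17, adjusted p = 0.64).

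Among 17 regulators of FLC, FRI was the only one called in the unpaired test, and it was higher in N14. FRI [AT4G00650], the scaffold of the complex that raises FLC, had 7.02, 6.87 and 6.68 CPM in N14, against 4.29, 4.83 and 4.49 CPM in Col-0 (log2 difference 0.60 ± 0.14, adjusted p = 0.0036), without overlap. The list's median difference was 0.10. Within experiments VEL1, a relative of VIN3, was called higher too (0.37, adjusted p = 0.13 unpaired and 0.036 paired). VIN3, which long cold induces to silence FLC, was low in both, at 0.72 ± 0.31 CPM in N14 and 0.666 ± 0.593 CPM in Col-0 (SD, n = 3), and was not called (adjusted p = 0.92).

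Of 16 floral integrator and meristem identity genes, 14 could be tested, 10 were lower in N14 and none was higher, with a median difference of -1.86 against -0.002 over all genes tested and a share of 8.18% lower among them. FT [AT1G65480], the mobile flowering signal, had no read in any N14 library and 5.86, 5.87 and 2.31 CPM in the Col-0 libraries. Taking 3 counts per library as the floor, FT was at least 44.5-fold lower in N14 (adjusted p = 4.7e-07). Its close relative TSF had 1 count over the N14 libraries and 75 over the Col-0 libraries, a ratio of 74.1 with a 95% counting interval of 12.9 to 2960. SOC1, which integrates the flowering pathways, was detected in both accessions, with 9.14, 12.3 and 16.6 CPM in N14, against 62, 59 and 83 CPM in Col-0 (log2 difference -2.42 ± 0.36, adjusted p = 1.0e-05), all N14 libraries lying below all Col-0 libraries. FUL, which acts with SOC1 in the meristem, had 1.5, 1.37 and 1.11 CPM in N14, against 14.2, 10.1 and 10.6 CPM in Col-0 (log2 difference -3.13 ± 0.24, adjusted p = 3.2e-11). AP1, a marker of the floral meristem, had 5 counts over the N14 libraries and 224 over the Col-0 libraries, a ratio of 44.3 with an interval of 18.7 to 138. The other called members were FD (-1.69), AGL42 (-1.24) and the phase-change factors SPL4 (-0.94), SPL5 (-1.35) and SPL15 (-2.02). Within experiments SPL3 was lower as well (-0.56, adjusted p = 0.029). Leaving out single libraries left 8 or 9 members lower. FT, TSF and AP1, with at most 3 counts in every N14 library, passed the filter on low counts through other libraries. The direction of their calls was thus largely fixed, and the count of 10 lower is not strictly comparable with the 8.18%. LFY and CAL had too few counts to be tested, with 0 in every N14 library, against 10, 19 and 6 counts of LFY and 5, 5 and 1 of CAL in Col-0.

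Floral organ markers were lower in N14 as well, 6 of 7 being called and none higher, with a median difference of -3.03. AP3, SEP1, SEP2 and SEP3 had at most 0.229 CPM in every N14 library and passed the filter on low counts through other libraries. The direction of their calls was thus largely fixed, and the 6 of 7 cannot be set against the share over all genes. SEP3, a floral organ identity gene, had 0.0653, 0.137 and 0.229 CPM in N14, against 3.57, 2.72 and 1.68 CPM in Col-0 (log2 difference -4.19 ± 0.55, adjusted p = 1.4e-06). SEP1 (-3.03), SEP2 (-3.23), AG (-2.30), PI (-2.40) and AP3 were lower too, AP3 with 0, 2 and 0 counts in the N14 libraries. The call of PI was lost without experiment 1 of either accession or experiment 2 of N14. SEP4, which leaves also express, was at 14.8 ± 1.34 CPM in N14 and 13.4 ± 1.4 CPM in Col-0 (SD, n = 3) and was not called. Summed over the 7 markers the level was 14, 17 and 16.3 CPM in N14 and 26.1, 19.8 and 19.8 CPM in Col-0, most of it SEP4. These libraries are of whole rosettes, in which fewer cells of a type and less RNA per cell cannot be told apart, and the part of floral tissue in the other differences was not tested.

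**Figure D2:**
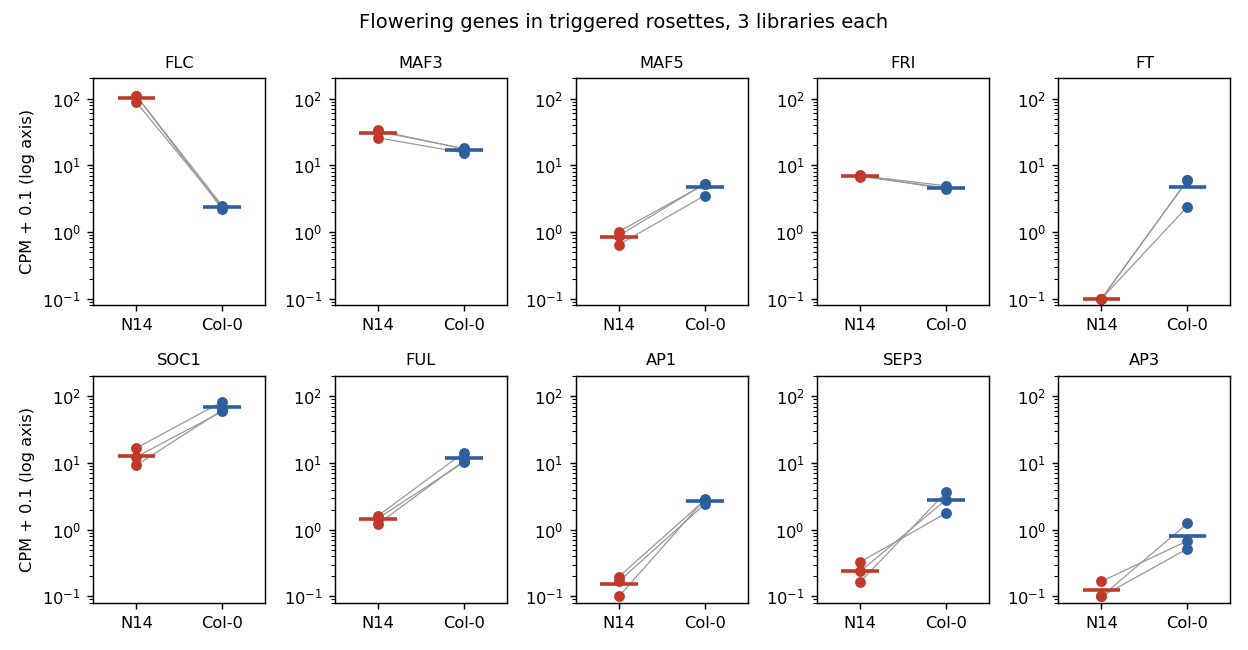
Levels of 10 flowering genes in triggered N14 (red, left) and Col-0 (blue, right) as CPM with 0.1 added on a logarithmic axis. Points are the 3 libraries, bars their mean and grey lines join libraries of the same experiment. FLC and MAF3 slope down from N14 to Col-0, and FT, SOC1, FUL, AP1, SEP3 and AP3 slope up in every experiment.

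The FLC difference was present in every condition, at 4.77 in 28-day controls, 4.47 after priming, 5.77 in 35-day controls, 5.67 after the lag and 5.09 after a first cold at 35 days. SOC1 was lower in N14 in the same 5 conditions, with differences of -4.04, -2.35, -4.04, -3.65 and -2.25. SEP3 was not called in 28-day plants before (-1.53) or after priming (0.38) and was called in the 4 later conditions, with -4.46 in 35-day controls. FRI was called in all 3 cold-treated conditions and in none of the 3 warm ones, where its differences were 0.08 at 28 days, 0.10 at 35 days and 0.19 after the lag, but the change of its difference between lag and triggered plants was not called (adjusted p = 0.64).

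Glucosinolate genes showed a few large differences, at side-chain steps and in breakdown. Within the breakdown list, where myrosinases cut glucosinolates and specifier proteins steer the products, 1 of 10 tested genes was higher and 3 were lower, with a median difference of -0.49. ESP [AT1G54040], the epithiospecifier protein that turns breakdown towards nitriles, had 1837, 2123 and 2146 CPM in N14, against 32.9, 37.7 and 33.8 CPM in Col-0 (log2 difference 5.87 ± 0.34, adjusted p = 1.0e-13). ESM1 [AT3G14210], which favours isothiocyanates instead, went the other way, with 134, 106 and 139.6 CPM in N14, against 1437, 1396 and 1533 CPM in Col-0 (log2 difference -3.53 ± 0.23, adjusted p = 1.3e-12). The accessions did not overlap for either gene, and N14 was the high one for ESP and the low one for ESM1. The myrosinase TGG2 had 335, 293 and 373 CPM in N14, against 727, 698 and 1131 CPM in Col-0 (log2 difference -1.35 ± 0.30, adjusted p = 0.0017), and MVP1, a GDSL lipase-like protein, was lower as well (-0.58 ± 0.14), a call lost without experiment 3 of N14. The myrosinase TGG1 was lower within experiments (-0.40, adjusted p = 0.16 unpaired and 0.031 paired).

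In aliphatic glucosinolate synthesis 2 of 28 tested genes were higher (7.14%) and 2 lower (7.14%) in N14, shares near the 5.77% and 8.18% over all genes, with a median difference of 0.22. AOP2, an enzyme that forms alkenyl side chains, had 422, 404 and 225 CPM in N14, against 24.5, 20.2 and 11.4 CPM in Col-0 (log2 difference 4.22 ± 0.52, adjusted p = 3.7e-07). The TAIR10.1 annotation, which describes Col-0, lists AOP2 as a transcribed pseudogene, and its neighbour AOP3 had 0 counts in all 6 libraries. AT2G25450, annotated as a member of the 2-oxoglutarate and iron-dependent oxygenase family, was nearly absent from N14, with 0.686, 0.889 and 0.764 CPM in N14, against 265, 229.7 and 225 CPM in Col-0 (log2 difference -8.26 ± 0.39, adjusted p = 9.4e-16). MAM3, an enzyme of side-chain elongation, was higher in N14 (1.81 ± 0.39), and FMOGS-OX2, an S-oxygenase, was lower (-2.48 ± 0.61). Levels of this pathway moved between experiments in both accessions, MAM3 having 48.2, 34 and 22.8 CPM in N14 and 13.7, 10.3 and 5.87 CPM in Col-0 in experiments 1, 2 and 3. Compared within experiments, 9 of the 28 genes were higher in N14 (32.1%, against 10.4% over all genes) and 2 lower (7.14%, against 13.7%). The higher ones included MAM1 (0.61, adjusted p = 0.39 unpaired and 0.0025 paired), BCAT4 (0.75) and CYP79F1 (0.63), which act in chain elongation and core synthesis.

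Indole glucosinolate synthesis had 1 gene higher (8.33%) and 2 lower (16.7%) of 12 tested, with a median difference of -0.64. IGMT2, a methyltransferase that modifies indole glucosinolates, had 24, 38.2 and 35.2 CPM in N14, against 2.23, 3.55 and 0.964 CPM in Col-0 (log2 difference 3.83 ± 0.57, adjusted p = 1.1e-05), and it has a near copy, IGMT1, with which reads may be shared. CYP83B1, a core enzyme of the pathway, had 82.9, 55.1 and 31.5 CPM in N14, against 159.7, 139.7 and 103 CPM in Col-0 (log2 difference -1.25 ± 0.26, adjusted p = 9.7e-04). CYP81F1, which hydroxylates indole glucosinolates, was lower (-1.47 ± 0.28), but over the 7 count tables its difference ran from -1.47 to -0.57. Within experiments 1 of the 12 was higher and 6 were lower (against 13.7% over all genes), among them CYP79B2 (-1.33, adjusted p = 0.065 unpaired and 1.6e-05 paired) and the regulator MYB34 (-1.01).

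Anthocyanin genes were lower in N14 along the late part of the pathway, while no difference was called for the early enzyme CHS. Of 36 tested flavonoid and anthocyanin genes, 13 were lower (36.1%) and 1 higher (2.78%), with a median difference of -0.40. Within experiments 17 were lower (47.2%) and 2 higher (5.56%), against 13.7% and 10.4% over all genes. PAP1 [AT1G56650], the MYB factor that switches on anthocyanin synthesis, had 1.18, 0.752 and 0.0382 CPM in N14, against 20.1, 14.4 and 7 CPM in Col-0 (log2 difference -4.36 ± 0.80, adjusted p = 2.0e-04). TT8, its bHLH partner, had 0.751, 0.65 and 0.229 CPM in N14, against 6.94, 2.87 and 2.26 CPM in Col-0 (log2 difference -2.87 ± 0.53, adjusted p = 2.0e-04). Both regulators were lower in N14 in every experiment, and their Col-0 levels were highest in experiment 1. DFR, the first enzyme committed to anthocyanins, had 12.2, 8.58 and 1.57 CPM in N14, against 101, 69.9 and 16.4 CPM in Col-0 (log2 difference -3.06 ± 0.69, adjusted p = 0.0020). The lowest Col-0 library, of experiment 3, was near the highest N14 library, of experiment 1, yet within each experiment Col-0 was several times above N14. LDOX, the next enzyme, had 15.2, 11.5 and 2.79 CPM in N14, against 104, 74.5 and 20.6 CPM in Col-0 (log2 difference -2.75 ± 0.65, adjusted p = 0.0030), and UF3GT, which adds a sugar, had 5.23, 5.26 and 0.764 CPM in N14, against 48.3, 29.7 and 9.18 CPM in Col-0 (log2 difference -2.95 ± 0.61, adjusted p = 7.8e-04).

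The remaining lower members were TT19, which carries anthocyanins to the vacuole (-2.26), the acyltransferases AT1G03940 (-3.21), AT1G03495 (-2.66) and 5MAT (-2.82), the glucosyltransferase gene AT4G14090 (-2.05), the flavonoid 3'-hydroxylase gene F3PRIMEH (-1.70), C4H of the general phenylpropanoid pathway (-0.61) and the MYB factor gene MYB113 (-2.83). MYB111, a MYB factor of flavonol synthesis, was the member that was higher, with 39.3, 42.2 and 30.7 CPM in N14, against 19.6, 18.5 and 10.3 CPM in Col-0 (log2 difference 1.21 ± 0.33, adjusted p = 0.012). CHS, which opens the whole pathway, stood at 1886, 2145 and 1665 CPM in N14, against 2114, 1669 and 1390.2 CPM in Col-0, and the groups overlapped (log2 difference 0.14 ± 0.41, adjusted p = 0.88, 95% interval -0.66 to 0.94). Leaving out single libraries left 9 to 13 members lower and 0 or 1 higher. After a first cold at 35 days DFR differed by -3.13 and PAP1 by -4.56, both called, and after the lag DFR differed by -1.65 and was not called (adjusted p = 0.13). The change of the DFR difference between lag and triggered plants was not called. After the lag 7 of the 36 list members were lower in N14, against 7.07% over all genes, and none was higher.

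Defence genes that differed were mostly lower in N14, PCC1, ACD6 and many immune receptor genes among them, whereas no difference was called for PR1. Of 23 tested genes of salicylate-dependent defence, 4 were lower (against 8.18% over all genes) and none higher, with a median difference of -0.71. In warm conditions the list leaned the other way, with medians of 0.76 in 28-day controls, 0.59 in 35-day controls and 0.65 after the lag. There 4, 5 and 5 members were higher (against 6.02%, 7.60% and 8.62% over all genes) and 2 lower each time. The medians were 0.11 after priming and 0.04 after a first cold at 35 days. PCC1 [AT3G22231], named for its control by pathogens and the clock, was almost absent from N14, with 0.914, 0.855 and 1.34 CPM in N14, against 645, 852 and 332 CPM in Col-0 (log2 difference -9.20 ± 0.64, adjusted p = 3.8e-12). It has related genes next to it on the chromosome, and over the 7 count tables its difference ran from -9.27 to -4.38, so its size is uncertain and its direction was the same in all 7. ACD6 [AT4G14400], an ankyrin-repeat protein that promotes salicylate-dependent defence and is known to vary between accessions, had 11, 12.3 and 11.6 CPM in N14, against 234, 266 and 174 CPM in Col-0 (log2 difference -4.27 ± 0.35, adjusted p = 1.0e-10), with table values from -6.60 to -3.07. WRKY38 (-2.10 ± 0.66) and the salicylate transporter EDS5 (-0.71 ± 0.24) were lower too. The call of WRKY38 was lost without Col-0 experiment 2 or any 1 of the N14 libraries, or in the kallisto table. That of EDS5 was lost without Col-0 experiment 2 or N14 experiment 2 or 3, with RLE scaling, with no filter on low counts, in the triggered libraries alone and in the CLC and kallisto tables, and in the Salmon table its difference was 0.07 (adjusted p = 0.87).

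PR1, the usual marker of the salicylate response, had 64.4, 40.4 and 53 CPM in N14, against 74.4, 105 and 17.6 CPM in Col-0. The Col-0 libraries spanned all N14 libraries, and no difference was called (log2 difference -0.32 ± 1.12, adjusted p = 0.90, 95% interval -2.52 to 1.87). Compared within experiments, 13 of the 23 genes were lower in N14 (56.5%, against 13.7% over all genes) and 1 higher (4.35%, against 10.4%). The added lower ones included PR5 (-1.10, adjusted p = 0.17 unpaired and 0.025 paired), WRKY70 (-0.80, 0.39 and 0.0020) and the defence regulator EDS1 (-0.49, 0.11 and 0.019). The higher one was PR2 (0.59, adjusted p = 0.61 unpaired and 0.047 paired).

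Intracellular immune receptors recognise pathogen effectors, and their genes are among the most variable between accessions. Of 28 tested NLR and TIR genes, 14 were lower and 1 higher in N14, with a median difference of -0.55, against shares of 8.18% lower and 5.77% higher over all genes. Within experiments 16 were lower (57.1%) and 1 higher, RPP13 and ZAR1 being the added lower ones. CSA1 [AT5G17880] had 4 counts over the N14 libraries and 898 over the Col-0 libraries, a ratio of 222 with a 95% counting interval of 86.3 to 816, and its fitted difference ran from -7.64 to -4.49 over the 7 tables. ADR1, a helper receptor, had 4 counts over the N14 libraries and 589 over the Col-0 libraries, a ratio of 145 with an interval of 56.5 to 536. CSA1 and ADR1 had at most 3 counts in every N14 library, so they could hardly be called other than lower. SNC1, a receptor of the RPP5 cluster, had 10.3, 10.6 and 10.6 CPM in N14, against 76, 81.6 and 82.2 CPM in Col-0 (log2 difference -2.93 ± 0.17, adjusted p = 6.7e-14). Its libraries lay close together within each accession and far apart between them. RPP4, from the same cluster, had 9.01, 11.8 and 8.48 CPM in N14, against 47.7, 47.6 and 49 CPM in Col-0 (log2 difference -2.30 ± 0.19, adjusted p = 1.0e-10). HR4, a homologue of the mildew resistance gene RPW8, had 0.294, 1.2 and 0.229 CPM in N14, against 24.9, 36.5 and 14 CPM in Col-0, with a log2 difference of -5.43 ± 0.65 that ran from -5.94 to -1.54 over the 7 tables. WRR4 (-5.14, from -5.71 to -3.34 over the tables), VICTR (-3.46, from -5.47 to -3.46), LAZ5 (-2.88), AT1G58602 (-2.20), ADR1-L1 (-1.21), RPP1 (-0.88), RPP8 (-0.82), AT4G19510 (-0.58) and RPP5 (-0.51) completed the lower group. AT4G12010 was the higher one (0.93 ± 0.22). Many of these genes sit in clusters of near copies, so reads may be split between copies.

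Jasmonate genes, which act in wound and insect defence, gave 1 call among 29 tested in the unpaired test (3.45% lower, against 8.18% over all genes). It was AOC4, an enzyme of jasmonate synthesis, which was lower in N14 (-0.96 ± 0.17). The median difference was 0.05. VSP2, a storage protein that jasmonate induces, had 56.9, 39.1 and 29.7 CPM in N14, against 43.6, 44.4 and 29.7 CPM in Col-0, with overlapping groups (log2 difference 0.10 ± 0.61, adjusted p = 0.95). Within experiments 7 of the 29 were lower (24.1%, against 13.7% over all genes) and 4 higher (13.8%, against 10.4%), among them the lower VSP1 (-1.65, adjusted p = 0.13 unpaired and 0.0033 paired) and the higher defensin PDF1.2 (1.16, 0.18 and 0.011).

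**Figure D3:**
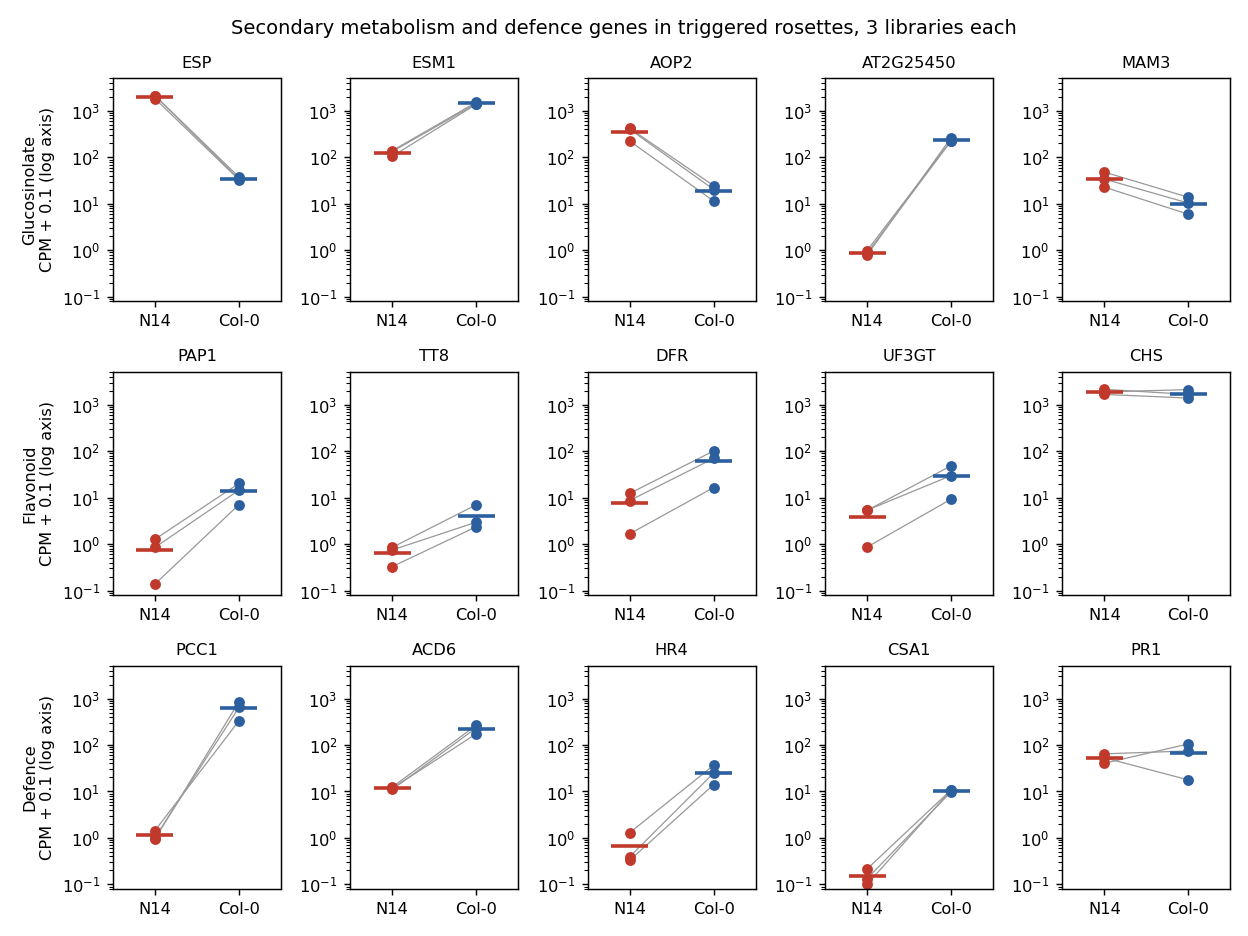
Levels of 15 genes of glucosinolates (top row), flavonoids (middle row) and defence (bottom row) in triggered N14 (red, left) and Col-0 (blue, right), as CPM with 0.1 added on a logarithmic axis. Points are the 3 libraries, bars their mean, and grey lines join libraries of the same experiment. ESP and ESM1 run in opposite directions, the lines of PAP1, TT8, DFR and UF3GT all climb from N14 to Col-0 at different heights in the 3 experiments, and CHS and PR1 show no common direction.

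No difference was called among the cold effector genes in the unpaired test. None of 19 tested cold-regulated (COR) effector genes was called in it, and the list's median difference was -0.08. COR15A [AT2G42540], which protects chloroplast membranes in freezing, had 8078, 8465 and 11220.5 CPM in N14, against 7121, 6826 and 10740.3 CPM in Col-0 (log2 difference 0.17 ± 0.38, adjusted p = 0.84). The groups overlapped, and the 95% interval of the log2 difference in the unpaired fit ran from -0.57 to 0.91. Differences within that range are not excluded by this fit, whose spread includes differences between experiments. Within experiments COR15A was not called either (0.19, adjusted p = 0.49). COR47, a dehydrin, stood at 968 ± 202 CPM in N14 and 770.2 ± 261 CPM in Col-0 (SD, n = 3), and RD29A at 2099.6 ± 66.2 CPM in N14 and 1893 ± 429 CPM in Col-0, and neither was called. RD29B, which abscisic acid induces, had 5.75, 8.62 and 7.37 CPM in N14, against 1.18, 2.26 and 5.32 CPM in Col-0, a difference of 1.32 ± 0.57 that was not called unpaired (adjusted p = 0.14) and was called within experiments (0.0031). KIN1 and KIN2, a pair of near copies, were lower in N14 within experiments (adjusted p = 0.024 and 0.016) but not in the unpaired test (0.17 and 0.23), and the difference of KIN1 changed sign between tables, from -1.60 to 0.22. In all, the test within experiments called 1 COR gene higher (5.26%) and 3 lower (15.8%), near the 10.4% and 13.7% over all genes.

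For the CBF genes, which lie side by side in the genome and resemble each other, no difference was called in the unpaired test. CBF1 had 3.92, 3.38 and 8.06 CPM in N14, against 4.98, 2.41 and 8.3 CPM in Col-0, with a log2 difference of -0.03 ± 0.72 (adjusted p = 0.99) and a 95% interval of -1.43 to 1.38. CBF2 had 4.02, 10.5 and 12.2 CPM in N14, against 7.89, 9.2 and 24.2 CPM in Col-0, a difference of -0.62 ± 0.51 (adjusted p = 0.50). CBF3 had 33.1, 22.2 and 37 CPM in N14, against 21.9, 8.5 and 30.3 CPM in Col-0, a difference of 0.61 ± 0.57 (adjusted p = 0.57), and N14 was above Col-0 in each experiment (adjusted p = 0.015 paired). The intervals of CBF2 and CBF3, -1.62 to 0.37 and -0.51 to 1.72, reach past a 2-fold difference, as does that of CBF1, and the spread between experiments exceeded the accession difference for all of them. Of the 17 tested CBF genes and regulators, HSFC1, a heat shock type factor that cold induces, was the one called, with 2.78, 2.22 and 2.41 CPM in N14, against 9.89, 8.5 and 11.2 CPM in Col-0 (log2 difference -1.99 ± 0.48, adjusted p = 0.0038). The list's median was -0.12, and within experiments 3 members were lower, HSFC1, MYB15 and PIF3 (17.6%), and 1 higher, CBF3 (5.88%), against 13.7% and 10.4% over all genes.

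**Figure D4:**
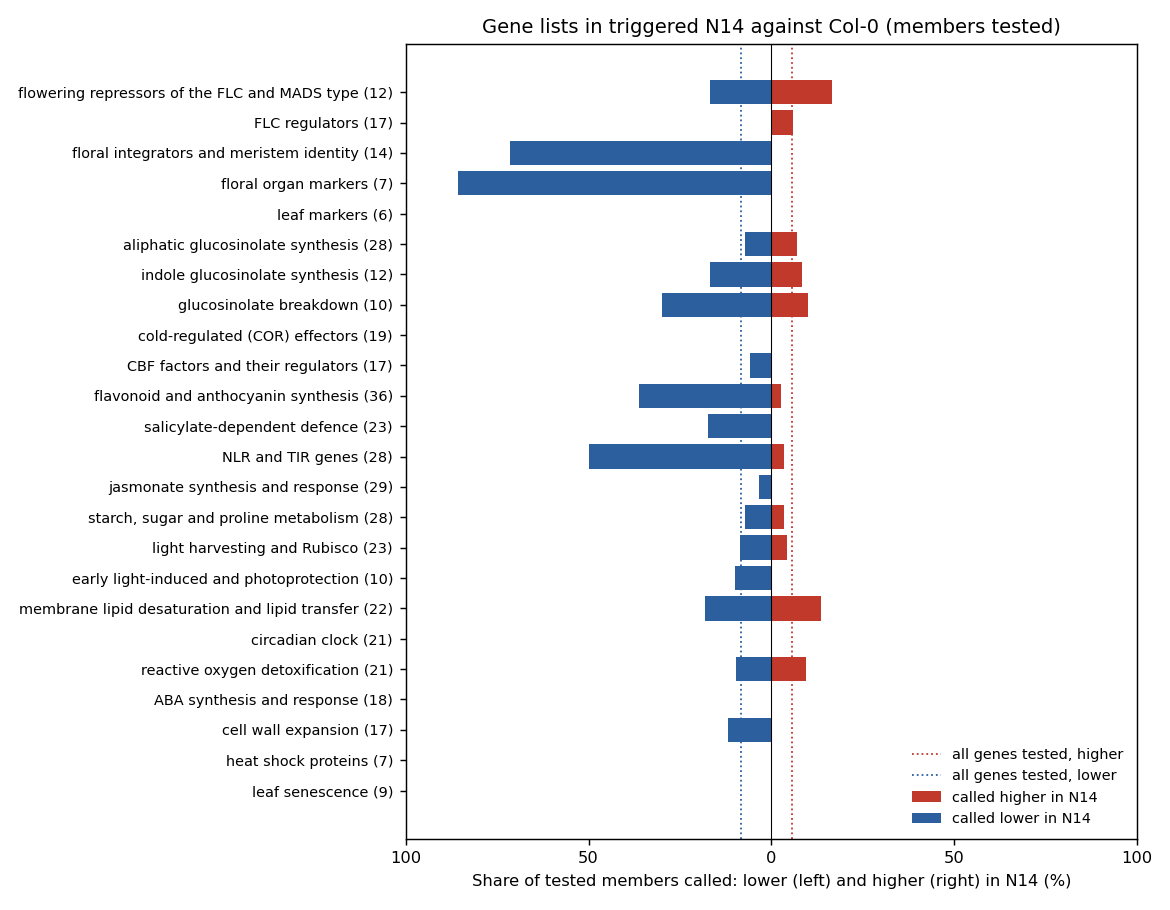
Share of the tested members of 24 gene lists called higher (red, right) or lower (blue, left) in triggered N14 against Col-0, with the number of members tested in brackets. Dotted lines mark the shares over all genes tested, 5.77% higher and 8.18% lower. Floral organ markers, floral integrators, NLR and TIR genes and flavonoid genes reach far to the left of the line, and the COR, clock, ABA, leaf marker, heat shock and senescence lists have no member called in the unpaired test that the plot shows. Members almost unread in every N14 library could hardly be called other than lower.

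The 3 calls among 23 tested light-harvesting and Rubisco genes fell on LHCB genes with near copies. With 1 higher (4.35%) and 2 lower (8.70%), the shares were near the 5.77% and 8.18% over all genes, and the median difference was -0.22. Within experiments 3 were higher and 3 lower of the 23, near the 10.4% and 13.7% over all genes, LHCB1.2 and LHCB4.3 being added to the higher ones and LHCB1.4 to the lower ones. LHCB1.1, an antenna protein gene of photosystem II, had 7691, 7029.7 and 11338 CPM in N14, against 12634, 12479 and 21691 CPM in Col-0 (log2 difference -0.84 ± 0.23, adjusted p = 0.012). LHCB2.1 had 1150.4, 1010.1 and 1548 CPM in N14, against 2406, 1996 and 3746 CPM in Col-0 (log2 difference -1.14 ± 0.21, adjusted p = 1.7e-04, from -1.91 to -0.94 over the tables), whereas its near copy LHCB2.2 was higher, with 2376, 1852 and 3021 CPM in N14, against 1456, 1218 and 1993 CPM in Col-0 (log2 difference 0.64 ± 0.21, adjusted p = 0.044). These copies can exchange reads, the call of LHCB1.1 was lost in the triggered libraries alone and without N14 experiment 1 or 2 or Col-0 experiment 3, and that of LHCB2.2 was lost without experiment 1 of either accession, Col-0 experiment 2 or N14 experiment 3, in the triggered libraries alone, with no filter and in the Salmon and kallisto tables. PSBQ-2, a subunit of the oxygen-evolving complex, was lower (-0.64 ± 0.22), a call lost without N14 experiment 1 or 2 or Col-0 experiment 3, in the triggered libraries alone, with RLE scaling, with no filter and in the BWA and TopHat tables. Among 10 photoprotection genes, AT2G21970, annotated as stress enhanced protein 2, was lower (-0.82 ± 0.20). NPQ1, the violaxanthin de-epoxidase, was called higher within experiments (0.47, adjusted p = 0.066 unpaired and 0.0019 paired). ELIP1, an early light-induced protein, ranged over 1290.0, 1017 and 487 CPM in N14, against 1614, 817 and 395 CPM in Col-0, with a wider range between experiments than between accessions (log2 difference -0.02 ± 0.46, adjusted p = 0.99).

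Starch, sugar and proline metabolism had 1 gene higher (3.57%) and 2 lower (7.14%) of 28 tested, no more than the 5.77% and 8.18% over all genes, with a median difference of 0.19. SUS1, a sucrose synthase, had 469.8, 550.5 and 562 CPM in N14, against 280.0, 273 and 373 CPM in Col-0 (log2 difference 0.77 ± 0.25, adjusted p = 0.033), a call lost without experiment 2 of either accession, Col-0 experiment 1 or N14 experiment 3, and in the BWA, RSEM, Salmon and TopHat tables. The sucrose exporters SWEET11, with 45.9, 44.3 and 45.3 CPM in N14, against 83.1, 86.9 and 78.1 CPM in Col-0, and SWEET12 (-0.91 ± 0.30) were lower, each without overlap, and both calls were lost without any 1 of the 6 libraries. Compared within experiments, 9 members were higher (32.1%, against 10.4% over all genes) and 8 lower (28.6%, against 13.7%). P5CS1, which makes proline, had 494, 415 and 498 CPM in N14, against 217, 199 and 243 CPM in Col-0, above Col-0 in every experiment (1.1 ± 0.57, adjusted p = 0.24 unpaired and 0.0012 paired). The other P5CS gene of the list, P5CS2, was called in neither test (-0.18, 0.67 and 0.32). ERD5, which breaks proline down, had 1.63, 2.63 and 1.03 CPM in N14, against 7.73, 20.9 and 6.08 CPM in Col-0, below Col-0 in every experiment (-2.71 ± 1.02, 0.081 and 1.1e-09). The starch-degrading ISA3, SEX1, PWD and SEX4 were among the 9 higher genes, with differences of 0.56, 0.53, 0.59 and 0.39. Of other members, BAM1 was higher too (0.35, adjusted p = 0.046 paired). BAM5 was lower within experiments (-0.99, adjusted p = 0.49 unpaired and 0.0405 paired), and BAM3 and DPE2 were called in neither test.

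Of 22 tested genes of lipid desaturation and lipid transfer, 3 were higher (13.6%) and 4 lower (18.2%), against 5.77% and 8.18% over all genes, with a median difference of -0.02. The desaturases FAD2, with 328, 340.1 and 321 CPM in N14, against 234, 215 and 269 CPM in Col-0 (log2 difference 0.46 ± 0.10, adjusted p = 0.0010), and FAD7 (0.42 ± 0.11) were higher. ADS1, a desaturase of another family, was lower, with 0.555, 0.684 and 1.64 CPM in N14, against 5.17, 5.59 and 8.51 CPM in Col-0 (log2 difference -2.75 ± 0.49, adjusted p = 1.5e-04). The lipid transfer protein genes LTP5, with 317, 353 and 424 CPM in N14, against 988, 995 and 1693 CPM in Col-0 (log2 difference -1.75 ± 0.29, adjusted p = 4.3e-05), and LTP6 (-1.61 ± 0.25) were lower. In the EARLI1 cluster of similar genes, EARLI1 was higher (1.52 ± 0.48), a call lost in the BWA and RSEM tables and without any 1 library other than N14 experiment 3, and AT4G12490 was lower (-2.68 ± 0.52). Within experiments 5 members of the list were higher (22.7%) and 7 lower (31.8%), against 10.4% and 13.7% over all genes.

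Reactive oxygen scavenging had 2 genes higher and 2 lower of 21 tested (9.52% each way), near the 5.77% and 8.18% over all genes, with a median difference of 0.20. CAT3, a catalase, had 1648, 1478 and 1572 CPM in N14, against 858, 762 and 920.3 CPM in Col-0 (log2 difference 0.89 ± 0.18, adjusted p = 5.4e-04), and GR2, a glutathione reductase, was higher (0.48 ± 0.15), a call lost without any 1 library other than N14 experiment 1. FSD1, the iron superoxide dismutase that copper supply represses, had 48.4, 76.7 and 66.9 CPM in N14, against 244, 304 and 338 CPM in Col-0 (log2 difference -2.21 ± 0.25, adjusted p = 1.2e-07), and DHAR2, a dehydroascorbate reductase, was lower (-0.95 ± 0.26), a call lost without Col-0 experiment 2 or N14 experiment 3. Paired by experiment, 7 members were higher (33.3%, against 10.4% over all genes) and 4 lower (19.0%, against 13.7%). Of 17 cell wall expansion genes 2 were lower (11.8%, against 8.18% over all genes), the expansin EXPA6, with 72.9, 62.8 and 71 CPM in N14, against 140.5, 156 and 114 CPM in Col-0 (log2 difference -0.99 ± 0.17, adjusted p = 6.8e-05), and the xyloglucan-modifying XTH7 (-1.34 ± 0.26), and the paired test gave 2 higher (11.8%) and 5 lower (29.4%).

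No gene was called in the unpaired test among 21 circadian clock genes (median difference 0.13), 18 ABA genes (0.09), 7 heat shock genes (-0.51) and 9 senescence genes (0.04). Within experiments the clock list had 6 genes higher (28.6%, against 10.4% over all genes) and 1 lower (4.76%, against 13.7%). PRR3, a pseudo-response regulator of the clock, had 14.6, 12.4 and 12.6 CPM in N14, against 9.39, 7.55 and 8.68 CPM in Col-0 (0.63 ± 0.43, adjusted p = 0.41 unpaired and 0.0084 paired) and LHY, a morning clock gene, had 139.6, 139.7 and 154 CPM in N14, against 104, 101 and 107 CPM in Col-0 (0.48 ± 0.25, 0.24 and 0.012). The ABA list had 2 higher, the transcription factor genes ABF3 and ABF4, and 2 lower, CYP707A1 and PP2CA, within experiments (11.1% each way), near the shares over all genes. The senescence list had 2 of 9 lower, the transcription factor genes NAP and WRKY53, and the heat shock list none. HSP17.4 of the heat shock list had 2 counts over the N14 libraries and 9 over the Col-0 libraries.

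The 10 largest differences each way, among genes at a mean log2 CPM of at least 3 without overlap between accessions, took in several already described. Higher in N14 without overlap were the noncoding RNA AT2G15555, with 293, 293 and 323 CPM in N14, against 0.786, 1.41 and 1.22 CPM in Col-0 (log2 difference 8.05 ± 0.65, adjusted p = 9.9e-11), and AT2G36540, a haloacid dehalogenase-like hydrolase, with 234, 281 and 238 CPM in N14, against 0.917, 1.47 and 1.72 CPM in Col-0 (log2 difference 7.53 ± 0.30, adjusted p = 3.5e-17). Beside ESP, FLC, AOP2 and IGMT2, the higher genes were SADHU3-2 (5.35) and SADHU5-1 (3.99), named after a family of retroposons, the noncoding AT2G01422 (4.93) and the plastid gene ATCG00380 (3.79, from 1.90 to 3.79 over the tables). Organelle genes held 0.369% to 0.534% of the counts in these polyA-enriched libraries, so the value of ATCG00380 may not stand for the level of the plastid RNA. Lower in N14 were, beside PCC1, AT2G25450 and ACD6, AT3G62530, an ARM repeat protein, with 3.72, 4.99 and 3.82 CPM in N14, against 460.1, 487 and 391 CPM in Col-0 (log2 difference -6.74 ± 0.28, adjusted p = 6.2e-17), and TIR, a Toll/interleukin-1 receptor-like protein, with 0.555, 2.39 and 0.42 CPM in N14, against 88.2, 108 and 67.9 CPM in Col-0 (log2 difference -6.28 ± 0.50, adjusted p = 6.5e-11). CNGC11, a cyclic nucleotide-gated channel with a near copy beside it, was lower (-4.95 ± 0.38), as were AT2G20870, annotated as a cell wall protein precursor (-4.26), AT1G23130, of the polyketide cyclase family (-3.83), the cytochrome P450 gene CYP72A11 (-3.76) and AT2G27402 (-3.73, from -7.22 to -2.67 over the tables).

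Among the most abundant called genes, THIC, which makes the thiamine precursor, had 1242, 1189 and 1103 CPM in N14, against 857, 699 and 647 CPM in Col-0 (log2 difference 0.68 ± 0.19, adjusted p = 0.011), a call lost without Col-0 experiment 2 or 3. AT5G20700, annotated as senescence-associated, was higher (0.80 ± 0.24), a call lost in the BWA, RSEM and TopHat tables and without experiment 1 or 3 of N14 or 2 or 3 of Col-0. ECS1 had 281, 345 and 335 CPM in N14, against 1781, 1837 and 1986 CPM in Col-0 (log2 difference -2.54 ± 0.34, adjusted p = 1.6e-06), from -4.30 to -2.15 over the tables.

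Some genes were read almost wholly in 1 accession. Of the tested genes, 501 had at most 3 counts in every N14 library, of which 290 were called lower. At most 3 counts in every Col-0 library were found for 288 genes, of which 165 were called higher. Such genes passed the filter on low counts through other libraries, so the direction of a call was largely fixed by the selection. These counts are therefore not comparable with the 8.18% lower and 5.77% higher over all genes. MRU1 had 3 counts over the N14 libraries and 3100 over the Col-0 libraries, a ratio of 1020 with a 95% counting interval of 349 to 4950. PLC8, a phospholipase C, had 6 and 2797 counts in N14 and Col-0, a ratio of 461 (211 to 1260). AT3G18535, annotated as a tubulin-tyrosine ligase, had no count in N14 and 19.4, 19.4 and 21.1 CPM in Col-0, at least 190-fold lower in N14. SADHU4-1 and AT1G76960 had 8 and 2 counts in N14, against 1965 and 1857 in Col-0. In the other direction, AT2G07750, an RNA helicase, had 1210 counts over the N14 libraries and 6 over the Col-0 libraries, a ratio of 204 (93.5 to 557), and AT1G59780, an NB-ARC resistance gene, had 561 and 3, a ratio of 189 (64.4 to 921). The transcribed pseudogene AT2G29160 (1474 against 5 counts), the reverse transcriptase gene AT3G25720 (1125 against 3) and the pseudogene AT4G06652 (670 against 2) were likewise read almost wholly in N14. Intervals cover counting error alone.

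The accession difference was then set beside the same difference in the other conditions, whose libraries it does not share. Of the 2827 genes called in triggered plants, 2176 (77.0%) were called the same way after a first cold at 35 days, where 2856 genes were called (14.1%), and these made up 76.2% of them. After priming at 28 days, 1768 (62.5%) were called the same way, which was 78.9% of the 2242 genes called there (11.1%). In the warm conditions the shares of triggered calls were 60.9% after the lag (1721 of 3178 called there, 15.7%), 57.2% in 35-day controls (1616 of 2837, 14.0%) and 49.5% in 28-day controls (1399 of 2501, 12.3%). By direction, 6.02% of genes were higher and 6.32% lower in N14 in 28-day controls, 4.97% and 6.09% after priming, 7.60% and 6.41% in 35-day controls, 8.62% and 7.07% after the lag, and 5.62% and 8.48% after a first cold at 35 days. Opposite calls numbered 9 after the lag, 12 in 35-day controls, 17 in 28-day controls and 0 in either first cold. Called the same way in all 6 conditions were 433 higher genes, FLC, ESP, AOP2 and IGMT2 among them, and 572 lower genes, among them PCC1, ACD6, AT2G25450, ESM1, CSA1, SOC1, FUL, FT and FSD1. Another 106 higher and 179 lower genes were called in triggered plants alone, but none of these passed the test of a difference from the lag.

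Whether the second cold changed the accession difference was tested as the difference in triggered plants minus the difference after the lag. Of 20263 genes, 53 were called (0.262%), 9 of them with a more positive difference in triggered plants (0.0444%) and 44 with a more negative one (0.217%). The accession difference itself was called in triggered plants for 33 of the 53 and after the lag for 34, with 20 called only after the lag and 19 only in triggered plants. Paired within experiments, 547 genes were called (2.70%), and all 53 were among them. Without Col-0 experiment 1 of the triggered plants 17 genes were called, and without N14 experiment 1 of the triggered plants 21. Leaving out any other library gave 26 to 35, except experiment 1 of the lag plants, with 44 without N14 and 53 without Col-0.

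The genes described next had a mean log2 CPM of at least 3 over the 12 libraries. Changes of similar or larger size were also called for less expressed genes, such as cwINV6 (-4.47) and PMAT2 (3.56), which were named after their values were seen. Some genes had a large accession difference after the lag and none that was called in triggered plants. DEG14 [AT5G27660], a trypsin family protein with a PDZ domain, was one of them. In triggered plants it had 16.4, 16.9 and 13.7 CPM in N14 and 17.6, 18.2 and 21.3 CPM in Col-0, and after the lag 5.45, 4.93 and 5.51 CPM in N14 and 62.8, 92.6 and 122 CPM in Col-0. N14 lay below Col-0 without overlap in both conditions, far below it after the lag but not in triggered plants (change in the accession difference 3.84 ± 0.30, adjusted p = 5.1e-09). The DEG14 difference was also large in controls, at -3.92 at 28 days and -4.62 at 35 days. It was 0.42 after priming and -0.33 after a first cold at 35 days. DI21, a drought-induced gene, was likewise lower in N14 after the lag, and it differed by -2.20 in 28-day and -2.58 in 35-day controls. After triggering the level was 24, 31.8 and 18 CPM in N14 and 28.4, 26.1 and 32.3 CPM in Col-0, and after the lag 2.46, 4.71 and 3.69 CPM in N14 and 25.4, 27 and 23.2 CPM in Col-0, and the groups overlapped in triggered plants (change 2.56 ± 0.34, adjusted p = 1.6e-04). AT1G20030, a thaumatin-like protein, was lower in N14 after the lag and not called in triggered plants. Its triggered libraries held 6.96, 8.14 and 8.86 CPM in N14 and 4.39, 3.76 and 8.64 CPM in Col-0, and after the lag 11.7, 6.61 and 13.8 CPM in N14 and 48.2, 43.7 and 47.1 CPM in Col-0 (change 2.64 ± 0.52, adjusted p = 0.021). The call of this change was lost without triggered Col-0 experiment 1 or 2 or lag N14 experiment 2. AT1G20030 differed by -1.53 in 28-day and -2.16 in 35-day controls, and by 1.07 after priming. After a first cold at 35 days it was higher in N14 (1.56).

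HPL1 [AT4G15440], a hydroperoxide lyase that makes leaf volatiles, was far higher in N14 after the lag, and in 28-day and 35-day controls. In triggered plants it had 20.2, 14 and 16.3 CPM in N14 and 10.0, 8.47 and 10.3 CPM in Col-0, and after the lag 309, 245 and 410.0 CPM in N14 and 16, 12.8 and 22.5 CPM in Col-0 (change -3.42 ± 0.46, adjusted p = 1.9e-04). NUDT6, a nudix hydrolase, was also higher in N14 after the lag, and its groups overlapped in triggered plants. After triggering the level was 14, 13.5 and 12.8 CPM in N14 and 11.8, 13.9 and 9.01 CPM in Col-0, and after the lag 37.2, 38 and 35.3 CPM in N14 and 5.53, 5.01 and 3.83 CPM in Col-0 (change -2.72 ± 0.50, adjusted p = 0.012). For HPL1 the difference in triggered plants was 0.81 ± 0.32, not called unpaired (adjusted p = 0.10) and called within experiments (0.0030).

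For other genes the difference was larger in triggered plants or went the other way after the lag. ACD6 was lower in N14 in both conditions, more so in triggered plants. Its triggered libraries held 11, 12.3 and 11.6 CPM in N14 and 234, 266 and 174 CPM in Col-0, and after the lag 46.7, 26.5 and 25.4 CPM in N14 and 135, 90.9 and 91.6 CPM in Col-0 (change -2.58 ± 0.44, adjusted p = 0.0062). Its accession difference was -1.69 after the lag, -1.51 in 28-day and -1.83 in 35-day controls, and -4.29 after a first cold at 35 days. AT5G03350, a legume lectin family gene, was lower in N14 in triggered plants, with 104, 133 and 105 CPM in N14, against 333, 460.4 and 227 CPM in Col-0, a call lost without Col-0 experiment 2, whereas after the lag its difference was 1.01 and not called (change -2.58 ± 0.56, adjusted p = 0.039). The call of the change was lost with RLE scaling and without any 1 of 10 of the 12 libraries. KIN1 was higher in N14 after the lag (1.85), and no difference was called in triggered plants (change -2.69 ± 0.56, adjusted p = 0.026), with the reservation on its near copy given above. This change was not called in the TopHat, CLC, kallisto and Salmon tables or without any 1 of 9 of the 12 libraries. KIN1 differed by 1.76 in 28-day and 2.01 in 35-day controls, and by -1.10 after a first cold at 35 days. AT3G07320, a glycosyl hydrolase of family 17, was higher in N14 in triggered plants, and no difference was called after the lag. It differed by 1.09 after priming and 1.26 after a first cold at 35 days. In triggered plants it had 95.3, 87.4 and 81.2 CPM in N14 and 35.8, 37.9 and 32.6 CPM in Col-0, and after the lag 18.8, 18.7 and 21.4 CPM in N14 and 24.6, 21.1 and 20.3 CPM in Col-0 (change 1.47 ± 0.18, adjusted p = 6.0e-05). AT3G04550, annotated as Rubisco accumulation factor-like, was higher in N14 in triggered plants (0.59) and had a difference of -0.39, not called, after the lag (change 0.97 ± 0.19, adjusted p = 0.021). The change lost its call without any 1 of 5 libraries, which were experiment 1 of triggered N14, experiments 1 and 2 of triggered Col-0, lag N14 experiment 2 and lag Col-0 experiment 1. In 28-day controls AT3G04550 was lower in N14 (-0.56).

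**Figure D5:**
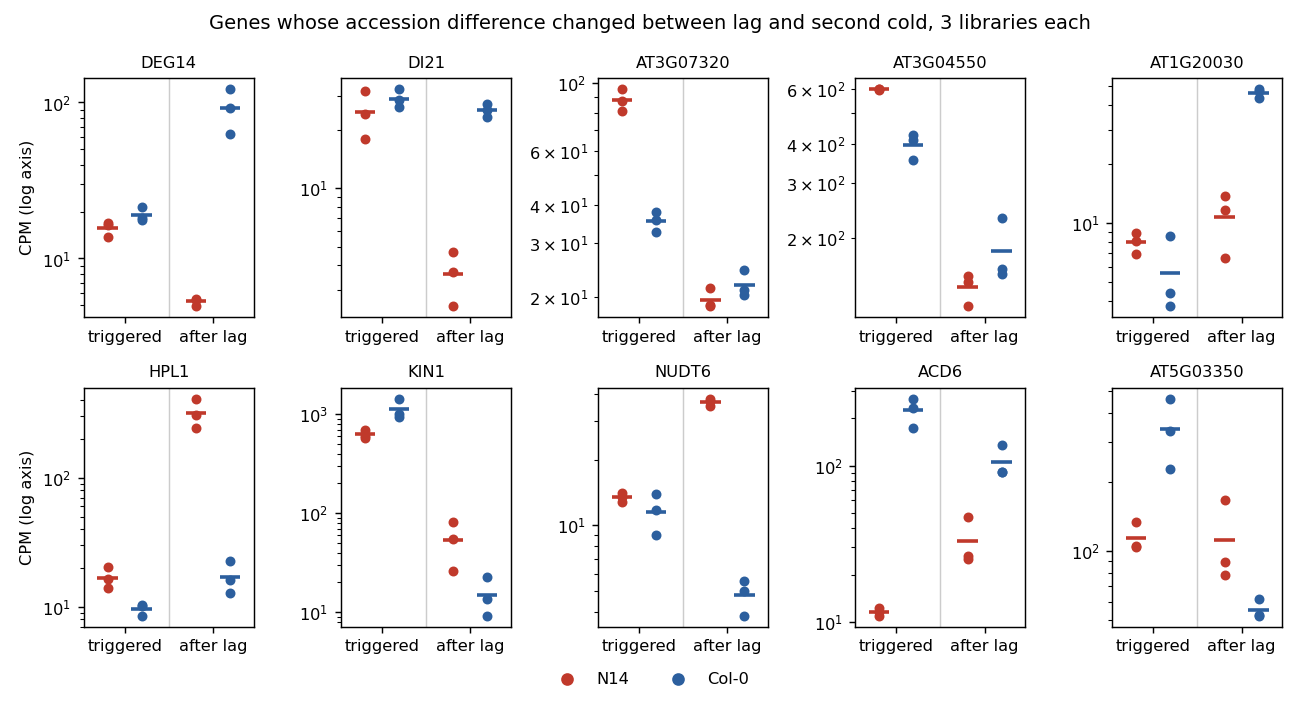
CPM of 10 genes whose accession difference changed between lag and triggered plants, on logarithmic axes that differ between panels. Red points are N14 and blue points Col-0, with bars at the mean of 3 libraries, in triggered plants (left of each panel) and after the lag (right). In the top row the difference of triggered plants was the more positive one and in the bottom row the more negative one, the red and blue points of DEG14, DI21, HPL1 and NUDT6 lying close in triggered plants and far apart after the lag.

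No gene passed the test of a change between the second cold and a first cold at 35 days (0 of 20263, 0%). At an unadjusted p under 0.05 there were 218 genes (1.08%), and the lowest adjusted p was 1 in edgeR's test. A calibrated test would give a share of about 0.05 without any true difference. The unpaired test was thus conservative here, and its lack of calls does not show that the accession differences were equal. DESeq2 called 1 gene, and edgeR with the experiments paired called 2 (0.00987%). FLC differed between accessions by 5.51 after the second cold and 5.09 after the first, DFR by -3.06 and -3.13, ACD6 by -4.27 and -4.29, ESM1 by -3.53 and -3.45, and COR15A by 0.17 and 0.17. DEG14 and HPL1, whose differences after the lag were large, differed by -0.33 and 0.83 after the first cold at 35 days.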

How the data were processed

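Total RNA was enriched for polyA and sequenced from a directional kit, per the labels' protocols. The authors deposited raw counts per gene from STAR 2.5.2a, TopHat2 2.1.1, BWA 0.7.13 and CLC, and estimated counts (expected counts) from kallisto 0.42.5, RSEM 1.2.30 and Salmon 0.6.0, on TAIR10, per the submitters' processing notes. Strand use in counting was not given in the sources used here, and the BWA table holds its values in 2 identical copies, of which the first was used, and estimated counts were rounded to whole numbers. Names and biotypes came from the TAIR10.1 annotation, which held 32835 of 33602 identifiers.

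The STAR counts of all 36 libraries (17861514 to 31046237 counts each) were fitted with edgeR 4.0.16 (limma 3.58.1, R 4.3.3), with 12 group means, its filter on low counts by group, TMM scaling and the quasi-likelihood F test. Benjamini-Hochberg adjustment ran over all 20263 genes, and an adjusted p under 0.05 was called. Standard errors were taken from F (the absolute log2 difference over its root), and 95% intervals are a normal approximation from them. Reported log2 differences are from this fit, CPM values are TMM-scaled, and a floor of 3 counts per library bounds a fold against 0. Library totals limit the precision, and counting intervals cover counting error only. Replicate libraries differed by far more than sampling noise, with a chi-square of 20.4 to 48.0 per gene.

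The labels number 3 independent experiments. Deviations from the group means correlated at 0.375, 0.571 and 0.495 between N14 and Col-0 libraries of the same experiment and at -0.398 to -0.074 between different ones, so the numbers pair the libraries. The paired test adds a term for each experiment within each condition. Alternatives were the paired fits, DESeq2 1.42.0, RLE scaling, no filter, the other 6 tables, the triggered libraries alone and each library left out in turn. The unpaired test was also tried on counts simulated from its fit to these data. The simulated libraries shared no differences between experiments, so the trial does not check the test where such differences are present.

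Members and gene lists were chosen with earlier results of these data known, and the lists overlap in what they hold with genes those results named. The genes named are a fixed set of flowering, cold, flavonoid and defence genes, up to 5 called members of each list with the largest differences (the largest 2 where none was called), and the 10 largest called differences each way at a mean log2 CPM of at least 3 without overlap. They also include the 5 largest called changes each way between triggered and lag plants at a mean log2 CPM of at least 3 over the libraries compared, the 5 most abundant genes each way among those with at most 3 counts in every library of the other accession, and the 5 most abundant called genes each way. Further list members were named after their values were seen. No coordinates or sequences are given.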

Additional observations from a re-analysis of the deposited data

Results flagged for a closer look

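The accession difference itself differed between triggered and lag plants for 10 genes that had the largest called changes, 5 each way, at a mean log2 CPM of at least 3 over the libraries compared, by edgeR's test of the change with Benjamini-Hochberg adjustment over all genes. The change was 3.84 on the log2 scale for DEG14, 2.64 for AT1G20030, 2.56 for DI21, 1.47 for AT3G07320 and 0.97 for AT3G04550. It was -3.42 for HPL1, -2.72 for NUDT6, -2.69 for KIN1, -2.58 for ACD6 and -2.58 for AT5G03350. Over 230 pairs of a gene and an alternative, 198 kept direction and call, 32 kept direction only and 0 turned round, and 6 of the 10 genes were called throughout. The call was lost for KIN1 under 13 alternatives (4 tables and 9 single libraries left out), for AT5G03350 under 11 (RLE scaling and 10 single libraries) and, with single libraries left out, for AT3G04550 under 5 and for AT1G20030 under 3. Groups of 3 libraries were not tested for single deviating libraries.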

How the results depend on the processing

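With a replicate block by condition, the paired test, 4888 genes differed between triggered N14 and Col-0 (2116 higher, 2772 lower), against 2827 unpaired (1170 higher, 1657 lower). In the triggered libraries alone with the block it was 7385 (3350 higher, 4035 lower). Leaving out single libraries gave 2139 to 2286. The change from lag to triggered plants was called for 53 genes, for 160 by DESeq2, 547 with the block by condition and 17 to 53 with single libraries left out. The change from a first cold at 35 days was called for 0 genes, 1 by DESeq2 and 2 with the block by condition, and 0 with any 1 library left out. Beyond the calls given in the results, the pairing ended no call of a named gene.

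Of 116 named genes, 90 were called, and 74 of these kept the call under every alternative. Over 2180 pairs of gene and alternative, 2038 kept direction and call, 81 lost the call, 34 gained one and 27 turned round, in genes whose call was absent except for EDS5 (0.07 in the Salmon table). The cause was not tested. With the block, PR1 was 0.18 and ELIP1 0.06; by condition, ELIP1 was 0.10 and CBF1 0.02, and in the triggered libraries alone ELIP1 was 0.09. By table, ELIP1 was 0.00 with TopHat, 0.01 with BWA and 0.00 with RSEM, KIN1 was 0.01 with BWA and 0.22 with RSEM, and VSP2 was -0.03 with TopHat, -0.38 with BWA, -0.15 with kallisto and -0.18 with Salmon. Without Col-0 experiment 1, ELIP1 was 0.62. Without Col-0 experiment 2, PR1 was 0.19, CYP707A1 0.07 and WRKY53 0.04. Without Col-0 experiment 3, CBF1 was 0.49, CBF2 0.08 and VSP2 -0.05. Without N14 experiment 1, CBF1 was 0.13 and VSP2 -0.19, without N14 experiment 2, CBF1 was 0.20 and PYL6 -0.83, and without N14 experiment 3, ELIP1 was 0.29. The extremes with single libraries left out were -0.75 for PR1, 1.1 for PYL6, -0.37 for ELIP1, -1.51 for CYP707A1, -2.38 for WRKY53, -0.92 for CBF2 and -0.51 for CBF1. Depth limits the genes at the floor, and 3 libraries a side limit the rest.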

Other observations

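Annotation classes, chosen after values were seen, add a view of the called genes. Of 140 tested genes annotated as disease resistance proteins, 43 were lower in N14 (30.7%) and 16 higher (11.4%), against 8.18% and 5.77% over all genes. Cysteine-rich receptor-like kinases had 9 of 30 lower and 2 higher. F-box genes had 30 of 174 lower (17.2%) and 19 higher (10.9%), and cytochrome P450 genes 23 of 142 lower (16.2%) and 10 higher (7.04%). Ribosomal protein genes had 15 of 315 lower (4.76%) and 8 higher (2.54%). Pseudogenes were called often in both directions, with 57 of 160 lower (35.6%) and 47 higher (29.4%). These shares are descriptions without a test, and many genes in these classes have near copies.

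Some called genes lay side by side among the tested genes. A run of 5 lower genes on chromosome 3 held RLP40, RLP41 and RLP42, which encode receptor-like proteins, with AT3G24929 and AT3G25013 among them. Another run of 5 lower genes lay on chromosome 1, from AT1G23935 to AT1G23970. Runs of 4 lower genes held RPP4 and SNC1 on chromosome 4, RLP49 and RLP50 on chromosome 4, and CSA1 and its neighbour DAR4 on chromosome 5. Further runs of 4 lower genes on chromosome 5 held SAUR19 and SAUR20, or PEL3. The runs named are a selection made after values were seen, and whether they exceed the number expected by position was not tested. Among runs of 4 higher genes, 1 on chromosome 5 held ACP5, Cand8, AT5G27220 and AT5G27230.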
